A study of Mus musculus with 18 samples.

Results

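Fos, Fosb, Fosl2, Jun, Junb and Jund encode the subunits of AP-1, and Arc, Ier2 and Dusp1 are genes of the early response of neurons to activity. They are described here library by library in the hippocampus of mice that lose or gain the microRNAs miR-132 and miR-212. They were chosen by gene symbol, 9 of the 11738 symbols listed in the 3 count tables of the study, and they were put together with their levels in single libraries already known. All 9 are listed in the tables of the deletion (10541 genes) and of tTA::miR132 (10799 genes). The table of tTA::miR212 (4618 gene symbols) lists 6 of them, and Fosb, Fosl2 and Ier2 are not analysed there.

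The mice were of the C57BL/6 strain. The deletion group, CaMKII-Cre::miR-132/212f/f, loses both microRNA genes through a Cre recombinase driven by the CaMKII promoter, which acts in excitatory neurons of the forebrain, so other cells keep them. The tTA::miR132 and tTA::miR212 groups carry a tetracycline transactivator and a transgene for 1 microRNA. The labels do not say which promoter drives the transactivator, or how old the animals were and of which sex. Each of these groups has nontransgenic controls of its own, which lack the recombinase or the transactivator too, so the part of the driver and that of the microRNA cannot be told apart. Hippocampi were taken after cervical dislocation, polyadenylated RNA was purified from TRIzol extracts, and cDNA from 6 animals was pooled into 3 replicates per group. The tables analysed here hold 2 libraries per group for the deletion, tTA::miR132 and their controls, and 3 per group for tTA::miR212 and its controls, 14 in all. In bulk tissue, fewer cells of a type and less RNA per cell cannot be told apart.

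AP-1 is a transcription factor made of a Fos protein and a Jun protein, or of a pair of Jun proteins, bound to each other through leucine zippers. Synaptic activity raises calcium in a neuron, calcium-dependent kinases and the MAP kinases then switch on transcription factors that are already present, CREB and SRF with its partners among them, and these turn on Fos, Fosb, Junb, Arc, Ier2 and Dusp1 within minutes and without new protein synthesis. In the hippocampus such immediate early genes mark neurons that were recently active, and the level in a tissue depends on what the animal did shortly before it was killed. miR-132 and miR-212 are themselves made from a CREB-regulated transcript.

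The mature microRNAs are shown because their shared seed (bases 2 to 8, in capitals) is what a target message is read by. Both come from chromosome 11, miR-212-3p at chr11:75173443-75173464 and miR-132-3p at chr11:75173723-75173744 on the plus strand (RefSeq sequences, build GRCm38.p6). They are identical at 17 of 22 positions.
mmu-miR-132-3p: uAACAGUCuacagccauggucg
mmu-miR-212-3p: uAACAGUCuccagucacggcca
The seed match GACTGTT was found in the 3′ UTR of 0 of the 9 genes, taking the longest 3′ UTR of each in GENCODE vM1. It was found in 1489 of 11272 genes of the tables with such a UTR (13.2%), and in 14.4% of genes whose 3′ UTR length lies within the range of the 9, which runs from 483 bases in Junb to 4642 in Fosl2. A missing match says only that these letters are not in the UTR searched.

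Total counts were 8190899 to 14772907 per library in the tables of the deletion and tTA::miR132, and 1299369 to 1544923 for tTA::miR212 after 1 transcript per gene was kept. Libraries were unequal in completeness, since deletion library 1 had 1047 genes at 0 (9.93%), against 120 in deletion library 2 and 73 to 90 in its controls. The biological coefficient of variation, the spread of a gene between replicates beyond counting error, came to 74.2% among deletion libraries and their controls, to 60.7% for tTA::miR132 and to 8.58% for tTA::miR212. Summed markers of excitatory neurons were 6802 to 7308 CPM (counts scaled to the total of the library) in tTA::miR212 libraries, against 7199 to 7432 in controls. These mark a cell type and do not tell the hippocampus from other parts of the forebrain. The same sums came to 2098 and 2361 CPM in the deletion, against 1901 and 2167 CPM in controls, and 1958 and 2288 CPM in tTA::miR132 libraries against 2243 and 2509 in controls.

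Under tTA::miR212, Fos, Junb, Arc and Dusp1 split the 3 transgenic libraries, with library 1 above and libraries 2 and 3 below every control library, while Jun and Jund stayed within narrow limits. Values are CPM of the total raw counts of a library, taken over the 1 transcript kept per gene. The members were put together with this split known, so these values are a description and carry no test.

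Fos, the Fos protein of AP-1 that is used most often as a mark of recent activity, is a gene on chromosome 12 at 86814840 to 86818223 (plus strand, build mm9). It had 216, 44 and 26 counts in tTA::miR212 libraries 1, 2 and 3, against 93, 97 and 94 in control libraries 1, 2 and 3. As CPM this was 166, 28.5 and 17.4 in tTA::miR212, against 68.4, 74.7 and 71.2 in controls. Library 1 therefore held 5.81 times the level of library 2 and 9.52 times that of library 3, while the control libraries lay close together. The mean hid this, at 70.5 ± 82.5 CPM in tTA::miR212 and 71.4 ± 3.13 CPM in controls (SD, n = 3 each).

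Junb encodes a Jun protein that is itself induced by activity (chromosome 8, 87501294 to 87502328, minus strand, mm9). Its levels were 201, 68.6 and 42.8 CPM in tTA::miR212, against 107, 119 and 109 CPM in controls. The order of the transgenic libraries was that of Fos, with library 1 at 2.93 times library 2 and 4.69 times library 3.

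Arc makes a capsid-like protein that is translated in dendrites and helps remove AMPA receptors from synapses (chromosome 15, 74499513 to 74503000, minus strand, mm9). It had 1046, 379 and 276 counts in tTA::miR212, against 700, 665 and 563 in controls. These correspond to 802, 245 and 185 CPM in tTA::miR212, against 515, 512 and 426 CPM in controls. Here too library 1 lay above and libraries 2 and 3 below all controls, with library 1 at 3.27 times library 2 and 4.34 times library 3.

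Dusp1 is the phosphatase that switches MAP kinases off again (chromosome 17, 26642535 to 26645464, minus strand, mm9). Its levels were 96.6, 36.2 and 34.1 CPM in tTA::miR212, against 64.0, 57.0 and 56.8 CPM in controls. Libraries 2 and 3 were nearly equal for this gene, 1.06-fold apart, and both lay below all controls.

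Jun and Jund did not follow. Jun, the Jun protein best known as c-Jun (chromosome 4, 94715725 to 94718913, minus strand, mm9), had 212, 210 and 186 CPM in tTA::miR212, against 185, 181 and 190 CPM in controls. Jund, a Jun protein that is present at rest and changes little with activity (chromosome 8, 73222848 to 73224514, plus strand, mm9), had 272, 238 and 262 CPM in tTA::miR212, against 293, 306 and 267 CPM in controls. The groups overlapped for both genes. In the GENCODE vM1 annotation the exons of Jun overlap BC042782 and those of Jund overlap Gm11175, each on the other strand, and nothing states whether counting used strand, so their reads cannot be told apart.

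The second rows of Arc and Dusp1 gave the same order of the transgenic libraries as the first. That of Arc was equal to the first in 5 of the 6 libraries and differed by 1 count in the other. For Dusp1 the second row had 94.3, 35.6 and 32.1 CPM in tTA::miR212, against 64.0, 53.9 and 56.8 CPM in controls. Being so near to the first rows, these second rows of Arc and Dusp1 are no separate measure of the split. The second row of Jun had 129, 148 and 118 CPM in tTA::miR212, against 115, 114 and 125 CPM in controls, so that library 2 was the highest here and library 1 in the row used above. The groups overlapped in both rows.

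**Figure D1:**
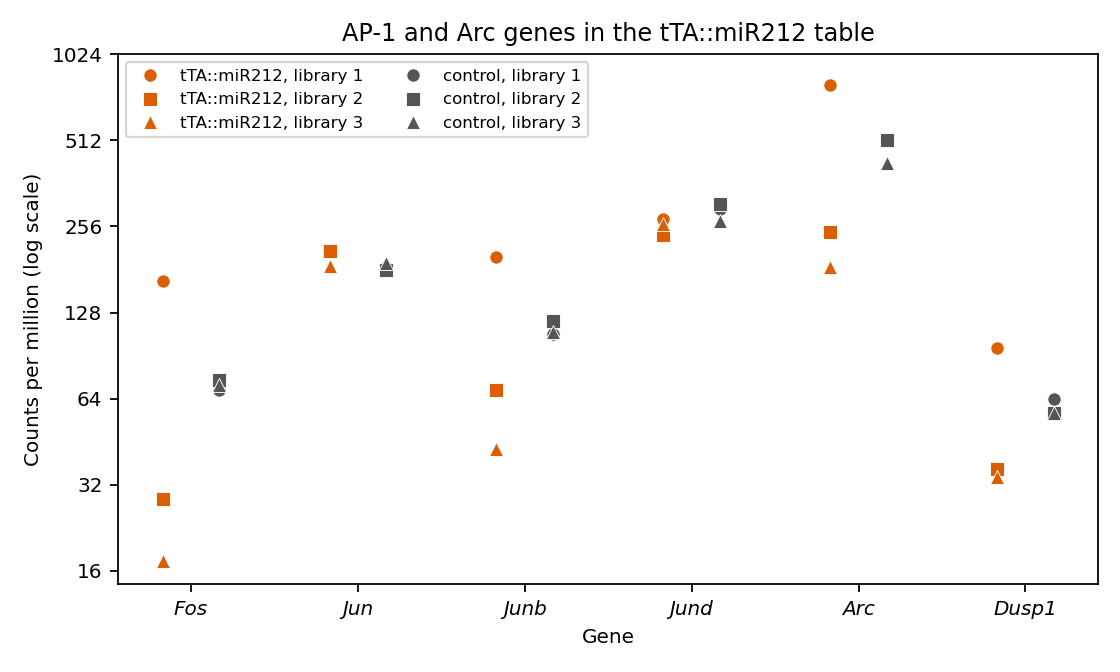
CPM (log axis) of the 6 genes listed in the tTA::miR212 table, 1 point per library, with tTA::miR212 libraries in orange on the left and control libraries in grey on the right of each gene. For Fos, Junb, Arc and Dusp1 the orange circle (library 1) lies above and the orange square and triangle (libraries 2 and 3) lie below all 3 controls, while Jun (186 to 212 CPM in tTA::miR212) and Jund (238 to 272 CPM) lie close together.

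Library 1 above and libraries 2 and 3 below all controls was the arrangement of 4 of the 6 genes and for 85 of the 4612 other genes of the table (1.84%). The width of the split can be given as a log2 range, the log2 of the highest over the lowest CPM among the 3 transgenic libraries. It was 3.25 for Fos, 2.23 for Junb, 2.12 for Arc and 1.50 for Dusp1. Among all 4618 genes these were the 5th, 8th, 9th and 25th widest. The ranges of Jun and Jund were 0.19 each, at places 2967 and 2890. In the control libraries, the ranges of the 6 genes ran from 0.07 (Jun) to 0.27 (Arc). The median range of the 6 was 1.81 in tTA::miR212 and 0.16 in controls, beside 0.24 in tTA::miR212 and 0.20 in controls over all genes of the table.

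Set against genes with a mean count within a factor of 2, the range of Fos was wider than that of 99.9% of 2542 genes, that of Junb than 99.9% of 3343, that of Arc than 99.8% of 1076 and that of Dusp1 than 99.5% of 2031. Jun stood at 38.7% and Jund at 45.0%. In the control libraries the corresponding shares ran from 10.7% (Jun) to 88.4% (Arc), so none of the 6 genes was among the widest there.

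**Figure D2:**
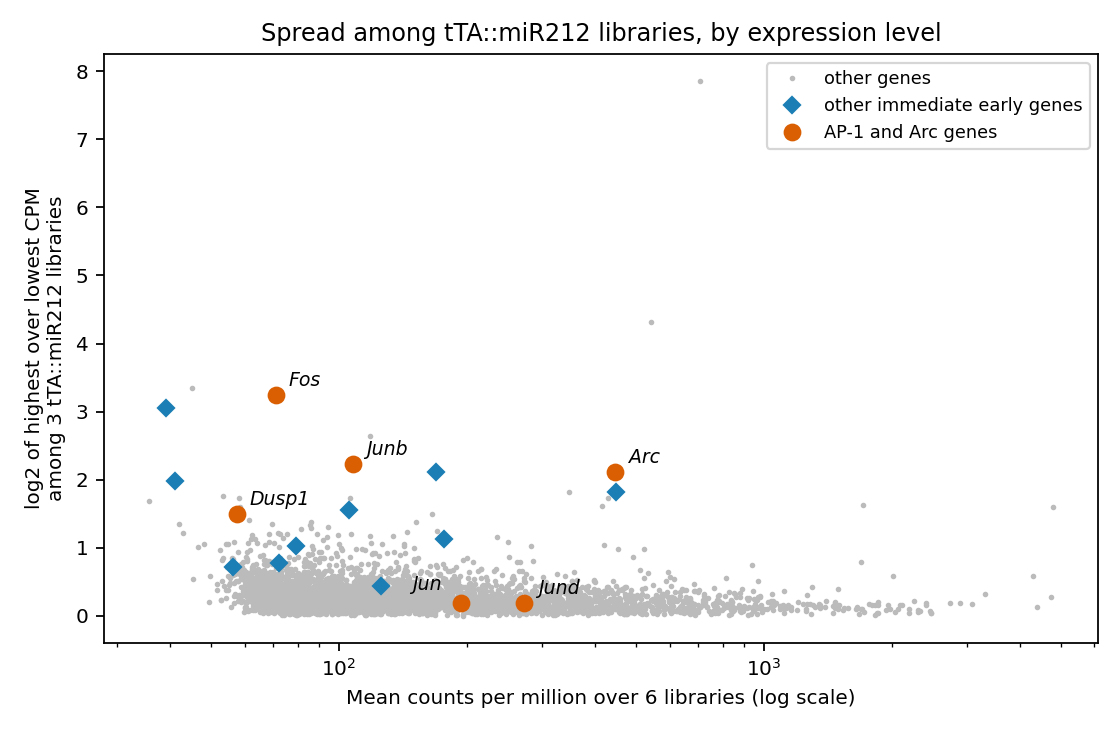
Each point is 1 gene of the tTA::miR212 table, with its mean CPM over all 6 libraries (log axis) against the log2 of the highest over the lowest CPM among the 3 tTA::miR212 libraries. Fos (3.25), Junb (2.23), Arc (2.12) and Dusp1 (1.50) stand above most genes of like level, together with several other immediate early genes (blue diamonds), whereas Jun and Jund (0.19 each) lie in the bulk. The gene without a range, because its lowest value is 0, is not drawn.

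Ratios taken within a library do not depend on its total. Fos over Jund was 0.608, 0.120 and 0.0665 in tTA::miR212 libraries 1, 2 and 3, against 0.233, 0.244 and 0.266 in controls. Arc over Jund was 2.95, 1.03 and 0.706 in tTA::miR212, against 1.75, 1.67 and 1.59 in controls. The counts of Fos made up 19.5%, 5.22% and 3.43% of the summed counts of Fos, Jun, Junb and Jund in tTA::miR212, against 10.5%, 11.0% and 11.2% in controls. Fos also varied more than its companions, since Fos over Arc was 0.207, 0.116 and 0.0942 in tTA::miR212, against 0.133, 0.146 and 0.167 in controls.

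Because the transgenic libraries lay on both sides of the controls, the group comparison showed little. Tested with edgeR's quasi-likelihood fit over all 4618 genes, with Benjamini-Hochberg adjustment and a threshold of 0.05, 0 of the 6 genes was called higher or lower, and 0 genes of the table were called (percent called 0). At an unadjusted p under 0.05, the fit gave 260 genes of the table and none of the 6, and DESeq2 and limma-voom called 0 genes. The log2 fold changes, tTA::miR212 over controls, were -0.08 for Fos (SE 0.95), -0.15 for Junb (SE 0.65), -0.26 for Arc (SE 0.66) and -0.13 for Dusp1 (SE 0.41). Jund was the nearest to the threshold, at -0.18 (SE 0.09), with an edgeR adjusted p of 0.886. The median fold change of the 6 was -0.14 on the log2 scale, beside 0.00 over all genes. With limma-voom the median of the 6 was -0.43, with Fos at -0.89, Arc at -0.58, Junb at -0.49 and Dusp1 at -0.37, none of them called.

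Without tTA::miR212 library 1, edgeR called Fos (-1.64, adjusted p = 0.00938), Arc (-1.18, adjusted p = 0.000336) and Junb (-1.02, adjusted p = 0.0101) lower than in controls, among 12 genes called lower (0.26% of those tested) and 18 called in all (0.39%). Over the alternatives with all libraries, or with another library left out, 0 of the 6 genes was called. Leaving out the library that stands apart fixes the direction, so these calls describe libraries 2 and 3 only.

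Other measures also separated the 3 transgenic libraries. Xist is transcribed from the silenced X chromosome in female cells, and its level was 3.07, 711 and 130 CPM in tTA::miR212 libraries 1, 2 and 3, against 763, 1298 and 1352 CPM in controls. The 3 choroid plexus markers listed in the table (Ttr, Kl and Enpp2) summed to 1420, 219 and 1296 CPM in tTA::miR212, against 1411, 1227 and 534 CPM in controls, none of them at 0. In Xist all 3 transgenic libraries lay below all controls, and library 1, the highest in Fos, was the lowest. In the sum of the choroid plexus markers, library 2 was the lowest of all 6 libraries. Pooled markers of other cells moved less, as neuronal markers summed to 3989 to 4209 CPM in tTA::miR212 and 4074 to 4490 CPM in controls, and oligodendrocyte markers to 5803 to 6233 CPM in tTA::miR212 and 6159 to 6349 CPM in controls. Astrocyte markers summed to 6844, 6389 and 8418 CPM in tTA::miR212, against 7065, 6749 and 6661 CPM in controls. Of the 6, 3 lay above and 1 below all controls in all transgenic libraries, beside 6.47% and 4.96% of all genes. Library 3 stood apart in genes outside these lists. Snhg11, a host gene of small nucleolar RNAs, had 1935, 1974 and 641 CPM in tTA::miR212, against 1878, 1963 and 1863 CPM in controls. AC123795.1, Leng8, Pisd-ps1, Rreb1 and Lime1, also among the 20 genes of widest range, were likewise lowest in library 3 of all 6 libraries. Library 2 was the highest in Prkcd, a thalamic marker, with 25.3, 81.6 and 31.4 CPM in tTA::miR212, against 29.4, 23.9 and 22.7 CPM in controls. The part of any of these in the split of Fos, Junb, Arc and Dusp1 was not tested.

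Most of the other immediate early genes listed in this table split the transgenic libraries the same way. The list, chosen with earlier results of these data known, holds 24 transcription factors and signalling genes that neurons induce within minutes, and 10 are in the table. For 6 of the 10 (Egr1, Egr3, Egr4, Nr4a1, Npas4 and Per1), library 1 lay above and libraries 2 and 3 below all controls. Npas4, a factor induced by calcium in neurons, had 88.9, 19.4 and 10.7 CPM in tTA::miR212, against 28.0, 39.3 and 48.5 CPM in controls. Nr4a1, an orphan nuclear receptor, had 315, 79.6 and 72.9 CPM in tTA::miR212, against 188, 208 and 151 CPM in controls. Egr1, a zinc finger factor, had 718, 203 and 319 CPM in tTA::miR212, against 447, 526 and 476 CPM in controls. In Egr1 the order of libraries 2 and 3 was the reverse of that in Fos, Junb and Arc. The anti-proliferative gene Btg2 was among the 4 with the widest range, with 87.4, 27.2 and 22.1 CPM in tTA::miR212, against 41.2, 26.9 and 41.7 CPM in controls.

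Genes that respond later to activity and those that act upstream were looked at in the same way. Of the 9 later genes in the table, 2 (Homer1 and Nptx2) had library 1 above and libraries 2 and 3 below all controls. Homer1, a scaffold of glutamate receptors, had 125, 55.0 and 94.3 CPM in tTA::miR212, against 103, 105 and 114 CPM in controls, so library 2 was the lowest and not library 3 as for Fos. Of the 18 kinases and factors that act upstream of AP-1, 1 (Mef2c) lay on these sides of the controls, with 218, 84.1 and 124 CPM in tTA::miR212 and 148, 148 and 187 CPM in controls. Of the same 18, 2 lay above and 4 below all controls in all 3 transgenic libraries, beside 6.47% and 4.96% of all genes. Library 1 above and libraries 2 and 3 below all controls was found in 0 of 11 genes whose products work with Arc or are regulated by it. It was also found in 0 of 5 other partners of AP-1. Of the 4 heat shock genes, Hspa8 had this arrangement. It had 205, 172 and 140 CPM in tTA::miR212, against 202, 188 and 205 CPM in controls, so that library 1 was nearly level with 2 of the controls.

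No gene of these lists was called in this table, with 0 higher and 0 lower in each. The median log2 fold changes were -0.23 over 10 immediate early genes, -0.17 over 9 later genes, -0.06 over 18 upstream genes, -0.03 over 11 Arc partners, 0.01 over 5 AP-1 partners and 0.13 over 4 heat shock genes, beside 0.00 over all genes. The smallest p was that of Dnm3 among the Arc partners (0.29, SE 0.10, edgeR adjusted p = 0.801), a dynamin that works in endocytosis. It had 185, 202 and 201 CPM in tTA::miR212, against 158, 149 and 170 CPM in controls. Next were Mapk14 among the upstream kinases (-0.31, SE 0.11) and Vgf, a secreted neuropeptide precursor, among the later genes (-0.20, SE 0.08), with edgeR adjusted p of 0.801 and 0.845. Mapk14 had 123, 119 and 118 CPM in tTA::miR212, against 163, 141 and 139 CPM in controls. Vgf had 462, 498 and 398 CPM in tTA::miR212, against 510, 505 and 534 CPM in controls, so the groups of all 3 did not overlap. That was so for 0 of the 6 AP-1 and Arc genes and for 11.4% of all genes of the table, 6.47% with all transgenic libraries above and 4.96% with all below.

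**Figure D3:**
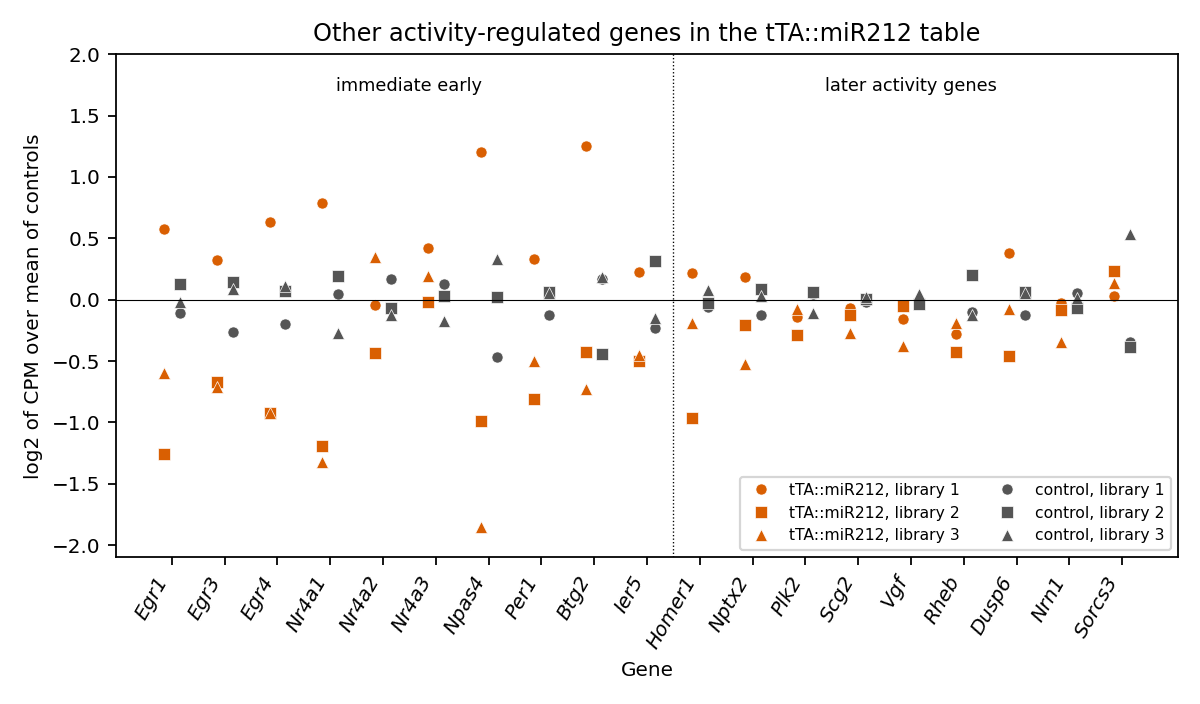
Log2 of the CPM of each library over the mean of the 3 control libraries, for the 10 other immediate early genes and the 9 later activity genes listed in the tTA::miR212 table, with tTA::miR212 libraries in orange on the left and controls in grey on the right of each gene. Library 1 (orange circles) lies above all controls and libraries 2 and 3 lie below them for Egr1, Egr3, Egr4, Nr4a1, Npas4 and Per1, and among the later genes for Homer1 and Nptx2.

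A search for genes of like pattern, among genes of wide range only, returned mostly the same families. Likeness was Pearson's r over the 6 libraries between a gene's log2(CPM + 1) and the mean standardized profile of the 6 genes. For r, CPM were taken with TMM library sizes. The search covered the 97 other genes whose log2(CPM + 1) spanned at least 1 over all 6 libraries. The 10 highest were Nr4a1 (0.98), Egr4 (0.96), Npas4 (0.95), Egr3 (0.91), Entpd4 (0.91), Per1 (0.88), Rprm (0.88), Btg2 (0.87), AC134575.1 (0.87) and Egr1 (0.86). Of these, 7 are on the list of immediate early genes, and the same 7 are all that the list has among the 97. The others of that list in this table, Nr4a2, Nr4a3 and Ier5, spanned less than 1. That list was chosen with earlier results of these data known. Entpd4 had 197, 128 and 87.6 CPM in tTA::miR212, against 139, 138 and 114 CPM in controls. Among the 6 genes themselves, r with that profile was 0.98 to 1.00 for Fos, Junb, Arc and Dusp1, 0.52 for Jund and 0.27 for Jun. These values describe 6 libraries that share their depth and preparation, and the 4 genes that split are part of the profile.

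The promoters of Fos, Fosb, Junb and Dusp1 are shown because CREB, the factor that links synaptic activity to these genes, binds the cAMP response element TGACGTCA and its core TGACG. RefSeq promoters (build GRCm38.p6) were searched on both strands over the 250 bases before the transcription start, for 7 of the 9 genes, those found in the promoter table. Matches are in capitals, and positions count back from the start.
Fos, chr12:85473736-85473853, plus strand: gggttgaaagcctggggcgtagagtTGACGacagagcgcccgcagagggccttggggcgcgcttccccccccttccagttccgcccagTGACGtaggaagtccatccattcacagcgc
Fosb, chr7:19310076-19310130, minus strand: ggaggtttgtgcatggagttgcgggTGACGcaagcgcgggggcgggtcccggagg
Junb, chr8:84978825-84978879, minus strand: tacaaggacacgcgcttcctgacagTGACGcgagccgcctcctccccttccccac
Dusp1, chr17:26508583-26508688, minus strand: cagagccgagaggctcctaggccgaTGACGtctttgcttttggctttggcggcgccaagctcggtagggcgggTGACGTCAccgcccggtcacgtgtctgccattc
The core begins at -129 and -66 in Fos, at -60 in Fosb, at -106 in Junb and at -191 and -143 in Dusp1, where the match at -143 is the full element, which holds the core on both strands. No match was found in Jun, Jund or Fosl2. The core is in 17.8% of 32851 promoters of this length and the full element in 1.55%. Of the genes listed in the tTA::miR212 table, Fos, Junb and Dusp1 have the core, and Jun and Jund have none. Arc, which split the libraries, was not among the promoters found and was not searched, nor was Ier2. The part of the core in the split of the libraries was not tested. The AP-1 element TGACTCA, whose other strand reads TGAGTCA, is in 4.46% of promoters and in none of the 7, and the SRF-binding CArG box is in 1.47% and in none of the 7. A match is a description of the letters only, and nothing follows for the factor from one that is missing.

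The deletion was compared with its controls to see whether loss of both microRNAs goes with other levels of these genes. Fos and Fosb lay below and Fosl2 lay above both controls in both deletion libraries, and none of the 9 genes passed the test. The other 6 had overlapping groups.

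Fos (chromosome 12, 86814850 to 86818219, plus strand, mm9) had 9.99 and 60.2 CPM in deletion libraries 1 and 2, against 93.1 and 76.9 CPM in controls. Most of the difference lay in deletion library 1, and library 2 lay nearer to the controls. The log2 fold change was -1.28 (SE 0.82), with an edgeR adjusted p of 0.999.

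Fosb, a Fos protein that builds up with repeated activity in a shortened form (chromosome 7, 19888044 to 19895394, minus strand, mm9), was counted 0 and 33 times in the deletion (libraries 1 and 2), against 110 and 122 times in controls. As CPM this was 0 and 3.40 in the deletion, against 11.7 and 14.9 in controls. A count of 0 in library 1 allows a level of up to 0.319 CPM (3 counts). Of 2893 genes with control counts within a factor of 2 of those of Fosb, 26.8% were also at 0 in deletion library 1, and 0.933% were in deletion library 2. The fitted log2 fold change of -2.97 (SE 2.78, edgeR adjusted p = 0.999) rests on that 0 and is no bound, and it was -1.97 without deletion library 1.

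Fosl2, known as Fra-2, a Fos protein that lacks the strong activation domain of Fos (chromosome 5, 32438844 to 32460207, plus strand, mm9), had 49.9 and 61.1 CPM in the deletion, against 45.8 and 44.8 CPM in controls. All 4 values lay close together, and the log2 fold change was 0.31 (SE 0.46). Fos over Fosl2 within a library was 0.200 and 0.985 in the deletion, against 2.03 and 1.72 in controls. The Fos proteins together (Fos, Fosb and Fosl2) made up 14.9% and 25.2% of the AP-1 counts in the deletion, against 34.9% and 29.3% in controls.

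In CPM of raw library totals, the Jun genes did not separate the groups. Junb had 78.9 and 149 CPM in the deletion, against 91.7 and 117 CPM in controls, so the deletion libraries lay on both sides of the controls. The same was true of Jund, with 159 and 80.2 CPM in the deletion, against 100 and 107 CPM in controls. Jun had 105 and 141 CPM in the deletion, against 89.4 and 106 CPM in controls.

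Arc, Ier2 and Dusp1 overlapped as well. Arc had 172 and 246 CPM in the deletion, against 244 and 156 CPM in controls. Ier2, a nuclear protein of the early response (chromosome 8, 87185229 to 87186751, minus strand, mm9), had 58.8 and 16.4 CPM in the deletion, against 25.2 and 20.1 CPM in controls. Dusp1 had 96.6 and 71.8 CPM in the deletion, against 86.6 and 33.3 CPM in controls. The controls of Dusp1 lay 2.60-fold apart, a wider gap than in 99.2% of genes of like count.

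With edgeR, 0 of the 9 genes and 0 of the 10487 genes tested were called in the deletion (percent called 0). At an unadjusted p under 0.05, 88 genes of the table and none of the 9 were found, while DESeq2 called 5 genes and limma-voom called 0, none of the 9 among them. The groups of 3 of the 9 did not overlap, beside 32.3% of all genes tested, 14.3% with both deletion libraries above and 18% with both below. The count for these genes is thus near that of any gene. The median log2 fold change of the 9 was 0.24, beside -0.03 over all genes. Without deletion library 2, edgeR called Fos (-3.02), Fosb and Ier2 (1.44), but it then called 43% of all genes, and without deletion library 1, Fos was at -0.51 and none of the 9 was called.

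Markers of other cells moved with the deletion. All 7 choroid plexus markers were below both controls in both deletion libraries. They summed to 960 and 2502 CPM in the deletion, against 5455 and 6313 CPM in controls. Otx2 was at 0 in both deletion libraries. Folr1, Clic6 and Kcne2 were at 0 in deletion library 1, as were 9.93% of all genes of the table. Both blood markers found were lower too, at 6.91 and 3.40 CPM in sum in the deletion, against 31.5 and 24.8 CPM in controls. The part of these tissues in the values of Fos and Fosb was not tested.

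In tTA::miR132, Fos lay above and Fosl2 and Jund lay below both controls in both transgenic libraries, and none of the 9 genes passed the test. Fos had 64.2 and 49.7 CPM in tTA::miR132, against 26.2 and 32.8 CPM in controls. Its libraries were close within each group, and the log2 fold change was 0.91 (SE 0.52), with an edgeR adjusted p of 0.997. Fosl2 had 27.1 and 54.1 CPM in tTA::miR132, against 57.5 and 73.8 CPM in controls, a log2 fold change of -0.74 (SE 0.50). It was -0.33 without tTA::miR132 library 1 and -1.31 without tTA::miR132 library 2. Jund had 78.7 and 102 CPM in tTA::miR132, against 142 and 104 CPM in controls, with tTA::miR132 library 2 almost level with control library 2. Its log2 fold change was -0.49 (SE 0.34), and with 1 library left out it ran from -0.67 (without tTA::miR132 library 2) to -0.27 (without control library 1).

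Fosb was uneven within both groups. It had 7 and 109 counts in tTA::miR132, against 73 and 352 in controls, which is 0.474 and 12.4 CPM in tTA::miR132, against 7.37 and 42.4 CPM in controls. The log2 fold change of -2.02 had an SE of 1.39, and it was -5.73 without tTA::miR132 library 2 and -0.22 without control library 2. Fos over Fosl2 was 2.36 and 0.918 in tTA::miR132, against 0.455 and 0.444 in controls. The share of the Fos proteins in the AP-1 counts overlapped, at 28.0% and 25.0% in tTA::miR132, against 23.6% and 34.9% in controls.

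For Arc and Dusp1 the controls were the uneven group. Arc had 157 and 176 CPM in tTA::miR132, against 76.0 and 310 CPM in controls, so both transgenic values lay between those of the controls. Dusp1 had 72.0 and 40.9 CPM in tTA::miR132, against 26.0 and 121 CPM in controls, in the same arrangement. The gap between the control libraries was wider than that of 99.7% of genes of like count for Arc and 97.2% for Dusp1. Control library 2 had the higher value of all the 9 genes but Jun and Jund, and it also had 485 genes at 0, against 155 in control library 1. The part of that library's make-up was not tested.

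The remaining genes overlapped between groups. Jun had 72.1 and 136 CPM in tTA::miR132, against 93.4 and 86.6 CPM in controls. Junb had 85.8 and 112 CPM in tTA::miR132, against 58.5 and 87.6 CPM in controls. Ier2 had 11.9 and 16.8 CPM in tTA::miR132, against 8.38 and 25.2 CPM in controls.

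With edgeR, 0 of the 9 genes and 0 of the 10734 genes tested were called in tTA::miR132 (percent called 0). At an unadjusted p under 0.05 there were 303 genes and none of the 9, and DESeq2 called 39 genes and limma-voom 2, none of the 9 among them. The groups of 3 of the 9 did not overlap, beside 33.1% of all genes tested, 18.8% above and 14.3% below, which again is near the share of any gene. The median log2 fold change of the 9 was -0.28, beside 0.00 over all genes. With limma-voom the median of the 9 was -0.01.

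Markers of other cells differed in tTA::miR132 as well. Of the 7 choroid plexus markers, 4 lay below both controls in both transgenic libraries and 0 above, and 3 had an unadjusted p under 0.05, while none was called. Their median log2 fold change was -0.62, and they summed to 4977 and 3642 CPM in tTA::miR132, against 6485 and 4958 CPM in controls, with none at 0. Enpp2, an enzyme of the choroid plexus, was at -0.62 (SE 0.15, edgeR adjusted p = 0.997). Oligodendrocyte markers summed to 4322 and 4184 CPM in tTA::miR132, against 3462 and 3630 CPM in controls, with 3 of 5 above and 1 below both controls. The part of these cells in the values of Fos, Fosl2 and Jund was not tested.

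**Figure D4:**
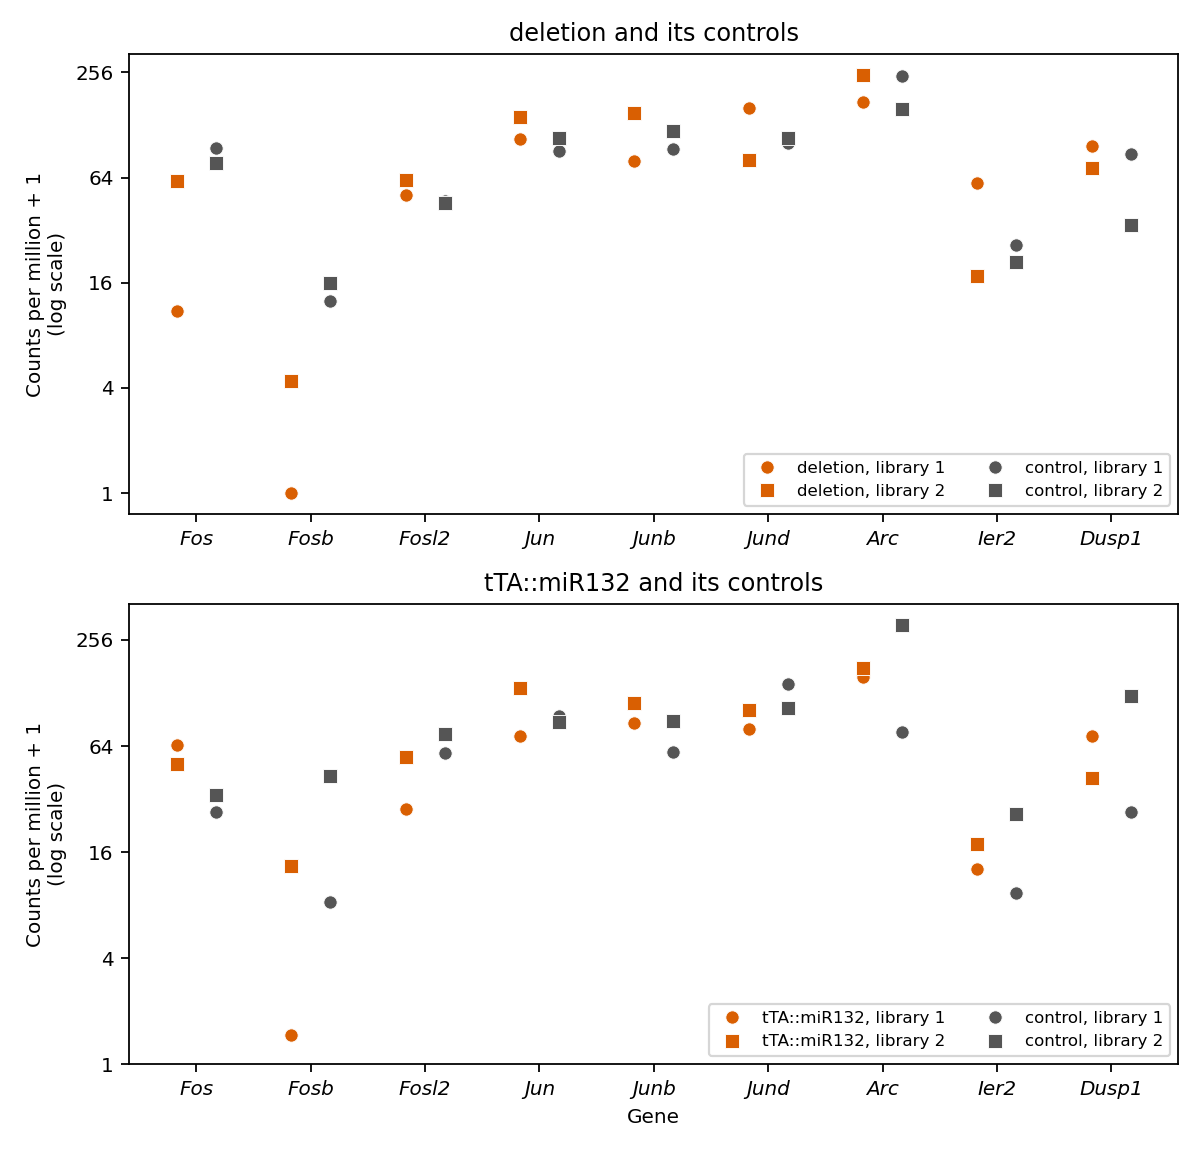
CPM plus 1 (log axis) of the 9 genes in the deletion table (top) and the tTA::miR132 table (bottom), 1 point per library, with deletion or tTA::miR132 libraries in orange on the left and their controls in grey on the right of each gene. Fos lies below its controls in both deletion libraries (9.99 and 60.2 CPM against 93.1 and 76.9) and above them in both tTA::miR132 libraries (64.2 and 49.7 CPM against 26.2 and 32.8), and Fosb is at 0 in deletion library 1.

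Fos and Fosl2 thus lay on opposite sides of their controls in the deletion and in tTA::miR132. Such a pair of opposed, non-overlapping comparisons was found for 5.55% of the 9980 genes tested in both tables, 3.41% with the deletion below and tTA::miR132 above, as for Fos, and 2.14% the other way, as for Fosl2. These comparisons have controls of their own, the tables were counted separately, and the difference between their fold changes was not tested.

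Related genes gave no calls in the deletion or tTA::miR132 tables either, with 0 higher and 0 lower in each list. The median log2 fold change of the other immediate early genes was 0.11 over 21 in the deletion and 0.02 over 22 in tTA::miR132. In the deletion, the smallest p among them was that of the clock gene Per1, with 66.3 and 101 CPM in the deletion and 52.3 and 41.4 CPM in controls (log2 fold change 0.86, SE 0.43). In tTA::miR132 it was that of Nfil3, a leucine zipper repressor, with 35.5 and 24.3 CPM in tTA::miR132 and 14.8 and 2.53 CPM in controls (1.75, SE 0.99). The later genes had medians of -0.13 over 14 in the deletion and -0.16 over 14 in tTA::miR132. Bdnf, a growth factor that neurons release, had 38.7 and 125 CPM in the deletion and 162 and 170 CPM in controls (-1.01, SE 0.54).

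Other partners of the AP-1 proteins had a median of -0.50 over 8 genes in the deletion, all 8 below 0, and 0.46 over 7 in tTA::miR132. The upstream kinases and factors had medians of 0.02 over 25 in the deletion and -0.17 over 24 in tTA::miR132, where Mef2c, a factor that activates neuronal genes, had the smallest p (-0.69, SE 0.19, edgeR adjusted p = 0.997). The genes that work with Arc had medians of 0.00 over 12 in the deletion and -0.06 over 12 in tTA::miR132. Heat shock genes had medians of -0.29 over 6 in the deletion and 0.05 over 6 in tTA::miR132.

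Levels can be compared between the genes per length of exon (CPM per kilobase, exon lengths of GENCODE vM1). In the controls of tTA::miR212 the order was Arc (159 ± 16.5), Jund (100 ± 6.89), Junb (61.9 ± 3.56), Jun (58.1 ± 1.46), Fos (33.9 ± 1.48) and Dusp1 (25.6 ± 1.78; SD, n = 3 each), and of the neighbours in that order Junb and Jun overlapped. In tTA::miR212 the means were 135 ± 112 for Arc, 89.4 ± 6.03 for Jund, 63.5 ± 4.53 for Jun, 57.6 ± 46.9 for Junb, 33.4 ± 39.2 for Fos and 24.1 ± 15.3 for Dusp1. The large SDs are those of the 4 genes that split the libraries.

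In the controls of the deletion the order per kilobase was Arc (65.4 ± 20.2), Junb (57.8 ± 9.93), Fos (36.1 ± 4.86), Jund (36.0 ± 1.69), Jun (30.7 ± 3.76), Dusp1 (22.2 ± 14.0), Ier2 (14.9 ± 2.36), Fosl2 (7.74 ± 0.120) and Fosb (3.54 ± 0.609; SD, n = 2 each). Arc and Junb overlapped, as did Fos with Jund, and Jun and Ier2 each with Dusp1. In the controls of tTA::miR132 the highest mean was again that of Arc (63.2 ± 54.2) and the lowest that of Fosb (6.64 ± 6.60). The Jun genes Jund and Jun stood at 42.7 ± 9.35 and 28.2 ± 1.51 there, and Fos at 12.5 ± 1.99. Levels are set side by side within a table only, because the tables were made separately.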

How the data were processed

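The deposited values are raw read counts, as whole numbers, of genes (deletion, tTA::miR132) or transcripts (tTA::miR212), per the file headers. Reads were aligned with Bowtie 0.12.7 to mm9, per the series design text and the submitters' processing notes; how they were counted, with or without strand, and how the authors filtered genes is not given in the sources used here. A further 14 normalized columns, 1 per library, were left aside. A repeated header row was dropped from the deletion table. For tTA::miR212, 1 transcript was kept per symbol, that of highest mean count. The tables hold 14 libraries of the 18 labelled samples; the others are not analysed here. Columns are numbered within a group while labels carry letters, so a library is a numbered replicate of its group. Nothing but the pooling text says that replicates were separate animals, so p-values measure the spread between these libraries. Amplified reads carry no molecular identifiers here, so floors cover counting error only.

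CPM are counts over the raw library total. In the tTA::miR212 comparison that total covers only the 1 transcript kept per symbol. For tTA::miR212 library 1 it is 1304567, beside 3146667 over all transcripts listed. Each table was fitted by itself in R 4.3.3 with edgeR 4.0.16 (quasi-likelihood, TMM, filterByExpr, robust, Benjamini-Hochberg over all genes tested, threshold 0.05), tested on simulated data. DESeq2 1.42.0, limma-voom (limma 3.58.1), other scaling, no filter, the replicate block, other transcript rows and leaving out each library were alternatives. The 9 genes and all lists were chosen with earlier results of these data known. All 9 genes are named; of each list, at most the 4 genes with the smallest p and, for tTA::miR212, the 4 with the widest range, and the 10 genes of most like pattern. Genes in the counts of 6 or fewer that lie on the same sides of the controls as Fos, and Entpd4, Snhg11, AC123795.1, Leng8, Pisd-ps1, Rreb1, Lime1 and Prkcd, were singled out after their values were seen. The numbers in the column names were not shown to pair libraries, since same-numbered libraries deviated together with r of -0.08 to 0.02.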

Additional observations from a re-analysis of the deposited data

Results flagged for a closer look

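Fos and Fosl2 each lay on one side of their controls in both deletion libraries and on the other side in both tTA::miR132 libraries. The log2 fold change of Fos was -1.28 in the deletion and 0.91 in tTA::miR132, with both deletion libraries below and both tTA::miR132 libraries above their own controls. That of Fosl2 was 0.31 in the deletion and -0.74 in tTA::miR132, with both deletion libraries above and both tTA::miR132 libraries below their own controls. With all libraries, edgeR called neither gene in either comparison. Opposed comparisons without overlap were found for 5.55% of the 9980 genes tested in both. The difference between the deletion and tTA::miR132 was not tested for either gene. With 1 library left out, Fos in the deletion ran from -3.02 (without deletion library 2) to -0.51 (without deletion library 1), and Fosl2 in tTA::miR132 ran from -1.31 (without tTA::miR132 library 2) to -0.33 (without tTA::miR132 library 1).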

How the results depend on the processing

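Of 264 recomputed log2 fold changes of the 9 genes, 235 kept their direction and their side of the threshold, 23 changed sign and 6 passed the threshold, all 6 on leaving out a library. Genes called in the deletion were 5 with DESeq2 and 1 to 4527 with a library left out; in tTA::miR132 they were 39 with DESeq2, 2 with limma-voom, 1 with the replicate block and 0 to 111 with a library left out; in tTA::miR212 they were 1 with the replicate block and 0 to 18. Of the 9 genes, 0 to 3 were called in the deletion and 0 to 3 in tTA::miR212 with a library left out, and 0 in tTA::miR132. The highest counts came on leaving out deletion library 2, tTA::miR132 control library 1 or tTA::miR212 library 1. In tTA::miR132, the sign changed for Arc with limma-voom (0.15) and with the replicate block (0.069), and for Dusp1 (0.12) and Jun (-0.010) with limma-voom; the cause was not tested. The replicate block changed no call of the 9 genes. With a library left out, the log2 fold changes that changed sign ran as follows. In the deletion they were -0.20 to 0.43 for Arc, -0.0090 to 1.36 for Dusp1, -0.48 to 1.44 for Ier2, -0.34 to 0.50 for Junb and -0.38 to 0.68 for Jund. In tTA::miR132 they were -0.97 to 1.12 for Arc, -1.17 to 1.11 for Dusp1, -0.88 to 0.76 for Ier2 and -0.35 to 0.54 for Jun. In tTA::miR212 they were -1.18 to 0.091 for Arc, -0.76 to 0.12 for Dusp1, -1.64 to 0.38 for Fos and -1.02 to 0.22 for Junb. Those that kept their sign and moved by over 1.5 times were Fos (-3.02 to -0.51), Fosb (-9.88 to -1.97), Fosl2 (0.20 to 0.42) and Jun (0.17 to 0.52) in the deletion, and Fosb (-5.73 to -0.22), Fosl2 (-1.31 to -0.33), Junb (0.10 to 0.74) and Jund (-0.67 to -0.27) in tTA::miR132, and Jund (-0.23 to -0.12) in tTA::miR212. With TMM library sizes, an alternative added after seeing the data, the groups of 4 instead of 3 of the 9 genes did not overlap in the deletion. The gene added was Jun, with 109 and 139 CPM in the deletion, against 88.5 and 106 CPM in controls. The share over all genes was not counted with these sizes, so this count has no reference of its own. With raw library totals that share was 32.3%. With TMM library sizes the split of 4 genes in tTA::miR212 was found again. The values were nearly those with raw totals, so this is no separate check. The low counts of Fos in tTA::miR212 libraries 2 and 3 (44 and 26) and of Fosb limit the precision of their values.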
